A study of Homo sapiens with 6 samples.

Results

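Collagen chain genes were followed in MDA-MB-231 cells, an established human breast cancer line of basal type and mesenchymal appearance. The set held 10 genes, COL1A1, COL4A1, COL4A2, COL4A5, COL5A1, COL6A1, COL6A2, COL7A1, COL8A1 and COL12A1, out of 65198 gene rows, and was chosen by name. A pair of derivatives of the line was compared. The shHOTAIR cells held a Tet-controlled hairpin aimed at HOTAIR, the long non-coding RNA of the HOXC locus, and the shCtrl cells carried an inducible hairpin of scrambled sequence. Both received 1 µg/ml doxycycline for 96 h, so the drug and the induction were shared by the groups. Each group had 3 repeats described as independent, from 1 derivative per hairpin, and the labels do not say whether a derivative was a clone or a pool. The p-values therefore set repeats of one derivative against repeats of the other. Levels are FPKM, fragments scaled by transcript length and library depth, and gene positions are those of GENCODE 29 on GRCh38.

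Collagens are trimers of chains wound into a triple helix of glycine-rich repeats. Type IV collagen forms the meshwork of basement membranes, mostly from COL4A1 and COL4A2 chains, whose genes lie head to head and share a promoter region, as do COL4A5 and COL4A6. Type VI collagen builds beaded filaments next to basement membranes and is assembled from the products of COL6A1, COL6A2 and COL6A3 or a related long chain. Types I and V form fibrils, type VII anchors epithelia to the tissue below, type VIII makes short-chain networks around vessels and in the cornea, and type XII decorates fibrils. In tumours, fibroblasts make much of the fibrillar collagen, while cancer cells can add basement membrane chains.

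The promoter windows of the paired type IV genes and of COL6A2 are printed because the results turn on which genes of a locus moved together. Windows run from 250 bases before to 50 bases after the RefSeq start (GRCh38.p14) and were found for 7 of the 10 genes, with no entry for COL1A1, COL6A1 and COL8A1. Capitals mark the letters CCAAT, those of a GC box (GGGCGG) and those of a TATA box (TATAAA), searched on both strands as written or as reverse complements, with no overlap between matches. The windows are COL4A1 on the minus strand at chr13:110307108-110307407, COL4A2 on the plus strand at chr13:110307034-110307333, COL4A5 on the plus strand at chrX:108439588-108439887, COL4A6 on the minus strand at chrX:108439409-108439708 and COL6A2 on the plus strand at chr21:46097862-46098161.
COL4A1: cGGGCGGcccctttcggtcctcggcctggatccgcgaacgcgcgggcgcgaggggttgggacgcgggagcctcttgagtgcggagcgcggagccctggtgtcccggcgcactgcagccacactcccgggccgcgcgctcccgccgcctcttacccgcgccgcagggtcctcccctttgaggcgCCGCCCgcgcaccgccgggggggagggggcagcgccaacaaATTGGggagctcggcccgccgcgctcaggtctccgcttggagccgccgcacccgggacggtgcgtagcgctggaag
COL4A2: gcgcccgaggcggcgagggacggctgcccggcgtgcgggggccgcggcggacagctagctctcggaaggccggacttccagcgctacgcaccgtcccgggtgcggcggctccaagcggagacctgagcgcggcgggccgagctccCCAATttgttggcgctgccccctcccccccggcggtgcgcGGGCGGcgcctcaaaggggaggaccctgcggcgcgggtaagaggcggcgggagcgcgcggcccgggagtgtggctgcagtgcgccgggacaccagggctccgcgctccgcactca
COL4A5: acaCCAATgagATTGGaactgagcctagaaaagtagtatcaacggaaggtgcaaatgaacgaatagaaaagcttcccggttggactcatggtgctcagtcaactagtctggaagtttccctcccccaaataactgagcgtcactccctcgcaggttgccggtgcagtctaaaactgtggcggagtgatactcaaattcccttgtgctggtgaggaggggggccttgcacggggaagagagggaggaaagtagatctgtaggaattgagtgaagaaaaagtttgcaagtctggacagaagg
COL4A6: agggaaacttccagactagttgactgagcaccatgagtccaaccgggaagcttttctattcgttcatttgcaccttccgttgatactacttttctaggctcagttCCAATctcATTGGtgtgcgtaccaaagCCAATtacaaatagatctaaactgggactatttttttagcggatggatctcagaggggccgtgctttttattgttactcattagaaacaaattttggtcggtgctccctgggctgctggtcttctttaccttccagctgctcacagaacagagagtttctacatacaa
COL6A2: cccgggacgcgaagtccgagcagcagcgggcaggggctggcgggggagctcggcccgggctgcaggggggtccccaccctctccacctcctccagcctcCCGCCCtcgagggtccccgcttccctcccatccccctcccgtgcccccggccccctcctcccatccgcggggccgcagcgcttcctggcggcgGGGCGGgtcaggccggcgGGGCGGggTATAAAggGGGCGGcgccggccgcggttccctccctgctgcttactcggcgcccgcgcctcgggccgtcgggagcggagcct

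The RefSeq starts of COL4A1 and COL4A2 lie 127 bases apart and their windows overlap by 226 bases. That overlap holds 1 CCAAT match, at position 110307179 of chromosome 13, and 1 GC box, at 110307219, which each window shows on opposite strands. COL4A6 has 2 RefSeq windows, of which the one nearer to COL4A5 is printed. Its start lies 380 bases from that of COL4A5, and the 121 bases that these windows share hold a pair of CCAAT matches at 108439591 and 108439599 of chromosome X and no GC box. The other COL4A6 start lies 1416 bases from that of COL4A5, and its window shares 0 bases with the COL4A5 window and holds 0 CCAAT matches and 1 GC box. The COL6A2 window has 4 GC boxes, 1 TATAAA match and 0 CCAAT matches. That of COL7A1, not printed, has 3 GC boxes, 1 TATAAA match and 0 CCAAT matches. Of 35116 RefSeq windows of this length, 34.6% hold CCAAT, 45% a GC box and 11.5% TATAAA, so these matches are common and serve as a description only.

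HOTAIR itself was listed at 0, 0.0128 and 0.0132 FPKM in shCtrl 1, 2 and 3 and at 0, 0 and 0.0113 FPKM in shHOTAIR 1, 2 and 3, too low in both groups for its loss to be checked (exact two-sided permutation p = 0.4). Correlations of log2 values over 11587 protein-coding genes were 0.990 to 0.994 within groups and 0.966 to 0.973 between groups, so no library stood apart. The FPKM summed over all rows was 2.22e+06 to 2.57e+06 in shCtrl and 1.62e+06 to 1.82e+06 in shHOTAIR, so the groups differed in this total. The median over the same protein-coding genes was 20.0 to 20.5 FPKM over the 6 libraries. The number of fragments per library is not known. The line's own markers KRT8, KRT18, VIM, CD44 and EGFR were at 70.4 FPKM or more in each library; of these VIM was lower in shHOTAIR (means of 948 and 393 FPKM) and 3 were higher. Fibroblast markers were low, with 6 of 7 below a mean of 1 FPKM and a summed level of 1.32 to 1.84 FPKM in shCtrl and 1.18 to 1.90 in shHOTAIR. All 6 leukocyte and all 4 luminal epithelial markers were below a mean of 1 FPKM and were not tested. The leukocyte markers summed to 0.856 to 2.02 FPKM in shCtrl and 0.406 to 0.829 in shHOTAIR. For 3 of them, PTPRC, LYZ and ITGAM, all shHOTAIR values were below all shCtrl values, and for 0 above. Of the luminal markers, 1 was higher in that way and 0 lower. The 5 smooth muscle and pericyte markers summed to 22.1 to 23.0 FPKM in shCtrl and 19.2 to 20.8 in shHOTAIR. Most of that came from MCAM (means of 15.5 and 12.3 FPKM). Of the 5, 3 were tested and 0 passed. For 2, MCAM and the untested CNN1 (means of 0.704 and 0.198 FPKM), all shHOTAIR values were below all shCtrl values. Among 6 endothelial markers the summed level was 3.18 to 3.25 FPKM in shCtrl and 12.2 to 14.5 in shHOTAIR, mostly through the receptor kinase TIE1 (means of 1.43 and 10.8 FPKM), which passed as higher. KDR, with means of 1.44 and 2.29 FPKM, did not pass (limma adjusted p = 0.0842). PECAM1, CDH5, VWF and TEK had means at or below 0.301 FPKM in both groups. For 3 of the 6, TIE1, KDR and VWF (means of 0.00992 and 0.0603 FPKM), all shHOTAIR values were above all shCtrl values. VWF was next to 0 and was not tested, and 0 of the 6 were lower in that way. Over all genes tested, 19.9% had groups that did not overlap with shHOTAIR higher, and 43% in either direction. The part of these markers in the results was not tested. In such bulk RNA, a change in the number of expressing cells and a change in RNA per cell cannot be told apart.

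Most of the expressed chains were higher in shHOTAIR. In the test of the 15934 genes whose mean reached 1 FPKM (limma on log2(FPKM + 1), Benjamini-Hochberg adjusted p under 0.05), 7 of the 10 chain genes passed as higher and 0 as lower. Over all genes tested 23.8% passed, 11.5% as higher and 12.4% as lower. Of the 8 tested, 7 had shHOTAIR values all above the shCtrl values, where 19.9% of genes tested did, as had COL4A5, which was not tested. Of the same 8, 6 passed as higher with a log2 change of at least 1, where 1.66% of genes did. COL12A1 was tested and did not pass, and COL4A5 and COL6A2 lay below the filter. COL7A1 reached the filter through its shHOTAIR values. Without any filter, in a fit of 36141 genes where 8.89% passed in either direction, 6 of the 10 passed, all as higher. COL7A1 was not among them (limma adjusted p = 0.0767). By ratio of group means the 7 genes rose between 2.65-fold (COL1A1) and 6.80-fold (COL6A1). The log2 changes are smaller than these ratios imply because the added 1 FPKM dampens low values.

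**Figure D1:**
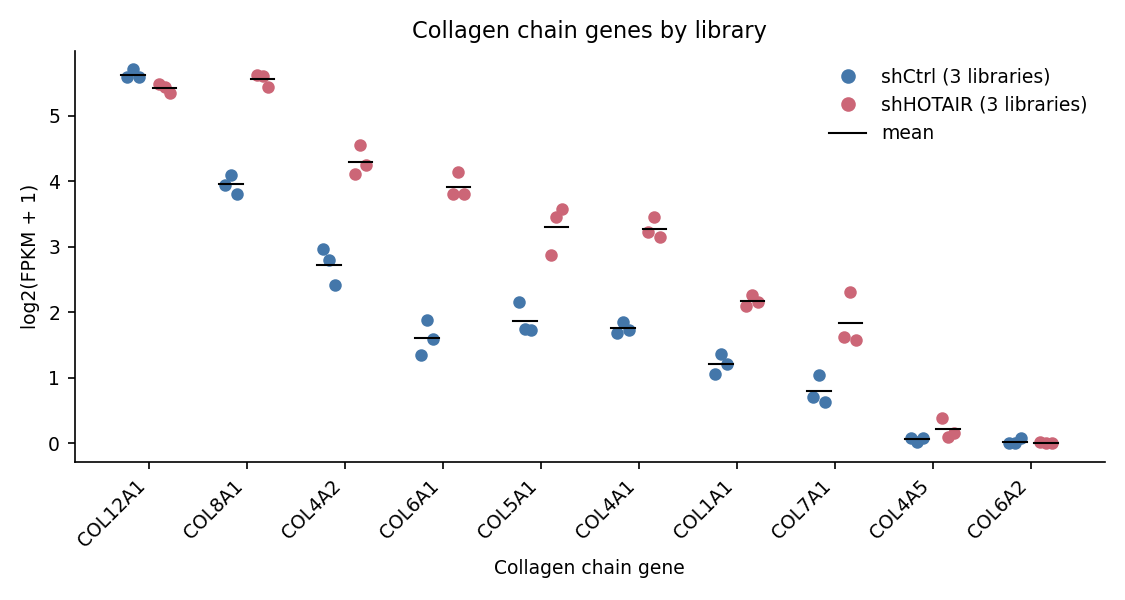
Level of the 10 collagen chain genes in each library, as log2(FPKM + 1), with genes ordered by mean over the 6 libraries, points for libraries and bars for group means (n = 3 per group). The shHOTAIR points lie above all shCtrl points in 8 genes, below them in COL12A1, and overlap them in COL6A2.

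The chains covered a wide range of levels. In shCtrl, COL12A1 led with 48.6 ± 2.39 FPKM (mean ± SD, n = 3), followed by COL8A1, COL4A2 and then COL5A1, COL4A1 and COL6A1, each of which overlapped the next in range, and by COL1A1, COL7A1, COL4A5 and COL6A2. In shHOTAIR the ranges of COL8A1 and COL12A1 overlapped at the top, COL4A2 and COL6A1 overlapped next, and COL5A1 and COL4A1 overlapped after them. COL1A1 and COL7A1 overlapped below them. COL6A1 thus moved up from rank 6 to rank 4. COL4A5 and COL6A2 were last in both groups, with overlapping ranges in shCtrl.

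The type IV pair COL4A1 and COL4A2 rose together. COL4A1 (ENSG00000187498, chromosome 13, 110148963 to 110307233, minus strand) measured 2.22, 2.62 and 2.30 FPKM in shCtrl 1, 2 and 3 against 8.41, 9.94 and 7.85 FPKM in shHOTAIR 1, 2 and 3. All shHOTAIR values were above all shCtrl values, and the log2 change was 1.52 (SE 0.11, limma adjusted p = 0.0011). COL4A2 (ENSG00000134871, chromosome 13, 110305812 to 110513209, plus strand) measured 6.84, 5.94 and 4.33 FPKM in shCtrl 1, 2 and 3 against 16.4, 22.4 and 18.0 FPKM in shHOTAIR 1, 2 and 3. Here too the groups did not overlap (43% of all genes tested have groups that do not overlap), with a log2 change of 1.58 (SE 0.18, limma adjusted p = 0.00347). COL4A2 was the more abundant chain per length in each library.

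Within a library the COL4A1 level was 0.325, 0.440 and 0.533 of the COL4A2 level in shCtrl 1, 2 and 3 and 0.514, 0.443 and 0.437 of it in shHOTAIR 1, 2 and 3. The shHOTAIR ratios fell inside the shCtrl range. On the log2(FPKM + 1) scale the difference in ratio between the groups was -0.06 (exact two-sided permutation p = 0.8, adjusted over 2 pairs 0.8). With smaller pseudocounts its sign was positive, and no difference in ratio was detected with 3 libraries per group. The annotated spans of the genes overlap by 1422 bases but share 0 exonic bases, and antisense genes within COL4A2 did not exceed 0.828 FPKM. Whether the counting used strand is not stated.

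At the other paired type IV locus both genes were below 1 FPKM in every library. COL4A5 (ENSG00000188153, chromosome X, 108439844 to 108697545, plus strand) measured 0.0613, 0.0128 and 0.0592 FPKM in shCtrl 1, 2 and 3 against 0.311, 0.0735 and 0.116 FPKM in shHOTAIR 1, 2 and 3. The groups did not overlap but every value was far under 1 FPKM, and in the fit without a filter the log2 change of 0.15 did not pass (limma adjusted p = 0.356). COL4A6, its head-to-head neighbour, which encodes the chain that COL4A5 pairs with in some epithelial basement membranes, measured 0.811, 0.607 and 0.921 FPKM in shCtrl 1, 2 and 3 against 0.143, 0.231 and 0.181 FPKM in shHOTAIR 1, 2 and 3. It fell in that same fit (log2 change -0.58, limma adjusted p = 0.0198), the 1 collagen chain that passed as lower. COL4A3 and COL4A4, the remaining type IV chains, stayed at or below 0.243 FPKM in every library.

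At the type VI locus COL6A1 rose and COL6A2 was listed at or next to 0. COL6A1 (ENSG00000142156, chromosome 21, 45981737 to 46005050, plus strand) measured 1.56, 2.70 and 2.01 FPKM in shCtrl 1, 2 and 3 against 12.95, 16.7 and 12.9 FPKM in shHOTAIR 1, 2 and 3. With groups far apart, its log2 change of 2.31 (SE 0.17, limma adjusted p = 0.00116) was the largest of the chain genes tested. COL6A2 (ENSG00000142173, chromosome 21, 46098097 to 46132849, plus strand) begins 93046 bases beyond the end of COL6A1 in the same orientation. It was listed at 0, 0 and 0.0534 FPKM in shCtrl and at 0.0080, 0 and 0 FPKM in shHOTAIR, next to nothing in either group.

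The ratio of COL6A1 to COL6A2 on the log2(FPKM + 1) scale was therefore 1.35, 1.89 and 1.51 in shCtrl and 3.79, 4.15 and 3.80 in shHOTAIR, a difference of 2.33 (exact two-sided permutation p = 0.1, the smallest that 3 against 3 allows; adjusted over 2 pairs 0.2). That difference is the change of COL6A1, since COL6A2 is at or next to 0 in both groups. COL6A3, the gene of the third type VI chain, lay between 0.0510 and 0.249 FPKM over the libraries with overlapping groups, and COL6A5 and COL6A6 did not exceed 0.0273 FPKM.

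**Figure D2:**
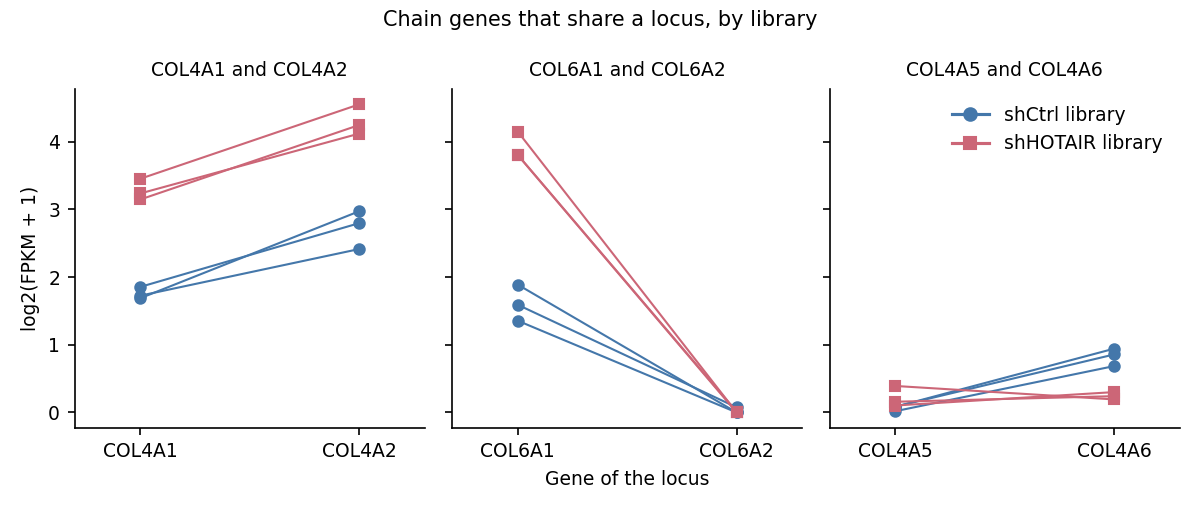
Level of the paired genes at 3 collagen loci, as log2(FPKM + 1), with 1 line per library joining the genes of a locus. COL4A1 and COL4A2 are both higher in the shHOTAIR libraries, COL6A1 is higher while COL6A2 sits at or next to 0, and COL4A6 is lower in shHOTAIR with COL4A5 below 0.5 in all libraries.

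Among the fibril-forming chains COL1A1 and COL5A1 rose. COL1A1, the main chain of type I collagen (ENSG00000108821, chromosome 17, 50183289 to 50201632, minus strand), measured 1.08, 1.58 and 1.33 FPKM in shCtrl 1, 2 and 3 against 3.27, 3.82 and 3.45 FPKM in shHOTAIR 1, 2 and 3. The spread of the repeats was small beside the gap, and the log2 change was 0.96 (SE 0.13, limma adjusted p = 0.00572). COL1A2, which supplies the partner chain of the usual type I trimer, stayed at or below 0.0308 FPKM. COL5A1 (ENSG00000130635, chromosome 9, 134641774 to 134844843, plus strand), whose product nucleates fibrils, measured 3.45, 2.35 and 2.30 FPKM in shCtrl 1, 2 and 3 against 6.36, 9.93 and 10.9 FPKM in shHOTAIR 1, 2 and 3. Its shHOTAIR 1 value was the lowest of that group yet above each shCtrl value (log2 change 1.43, SE 0.22, limma adjusted p = 0.00902). Its partner chain gene COL5A2 was below the filter, at 0.80, 0.847 and 0.913 FPKM in shCtrl and 0.827, 0.788 and 0.772 FPKM in shHOTAIR, and its groups overlapped. In the fit without a filter COL5A2 did not pass (log2 change -0.05, limma adjusted p = 0.815), and COL5A3 was listed at or next to 0.

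COL8A1 (ENSG00000144810, chromosome 3, 99638475 to 99799226, plus strand) combined a high level with a large rise. It measured 14.5, 16.2 and 13.1 FPKM in shCtrl 1, 2 and 3 against 48.6, 47.8 and 42.6 FPKM in shHOTAIR 1, 2 and 3, with little spread in either group (log2 change 1.61, SE 0.10, limma adjusted p = 0.0007). COL8A2, the second type VIII chain, did not exceed 0.0327 FPKM. COL7A1, the anchoring fibril collagen (ENSG00000114270, chromosome 3, 48564073 to 48595267, minus strand), measured 0.628, 1.06 and 0.544 FPKM in shCtrl 1, 2 and 3 against 2.09, 3.97 and 1.98 FPKM in shHOTAIR 1, 2 and 3. The groups were apart, but shHOTAIR 2 was near 4 FPKM and the others near 2 (log2 change 1.05, SE 0.26, limma adjusted p = 0.0361). The COL7A1 call was lost without shCtrl 1, shCtrl 2, shCtrl 3, shHOTAIR 1 or shHOTAIR 3, with adjusted p up to 0.103.

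COL12A1, the fibril-associated collagen (ENSG00000111799, chromosome 6, 75084326 to 75206051, minus strand), was the 1 tested chain of the 10 that did not pass. It measured 47.2, 51.4 and 47.3 FPKM in shCtrl 1, 2 and 3 against 43.7, 42.4 and 39.9 FPKM in shHOTAIR 1, 2 and 3. Each shHOTAIR value was under each shCtrl value, while the log2 change of -0.21 (SE 0.06) did not pass (limma adjusted p = 0.062). The ratio of the means was 0.865.

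Of the other 34 collagen chain genes, 5 reached a mean of 1 FPKM, and 3 of them rose. COL13A1, a transmembrane collagen on chromosome 10, measured 46.8, 56.5 and 46.3 FPKM in shCtrl 1, 2 and 3 against 78.6, 75.3 and 71.5 FPKM in shHOTAIR 1, 2 and 3 (log2 change 0.59, limma adjusted p = 0.00918). COL16A1, a fibril-associated chain, had means of 0.383 ± 0.0338 FPKM in shCtrl and 1.87 ± 0.267 in shHOTAIR, and COL18A1, the basement membrane collagen that carries the endostatin fragment, 0.822 ± 0.230 and 2.72 ± 0.560 FPKM (SD, n = 3; limma adjusted p = 0.00854 and 0.0137). Both passed the filter through shHOTAIR, so the count of 3 among 5 says nothing of the list. In the fit without a filter both passed as higher (limma adjusted p = 0.00937 and 0.0316). COL17A1, a hemidesmosome collagen (log2 change 0.15), and COL27A1, a fibrillar chain (-0.06, of either sign depending on the scaling), did not pass. The other 29 were below a mean of 1 FPKM, and of those the highest value in any library was the 0.921 FPKM of COL4A6 in shCtrl.

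The makeup of the measured collagen mRNA differed between the groups. Summed over the 44 chain genes, FPKM was 142, 157 and 135 in shCtrl and 240, 252 and 228 in shHOTAIR. In shCtrl, COL12A1 and COL13A1 made up 33.7% ± 1.2 and 34.4% ± 1.51 of the sum and COL8A1 10.1% ± 0.345 (SD, n = 3). In shHOTAIR the COL12A1 share was 17.5% ± 0.695, that of COL13A1 31.3% ± 1.43 and that of COL8A1 19.3% ± 0.854. The COL6A1 share was 1.43% ± 0.314 in shCtrl and 5.90% ± 0.650 in shHOTAIR, and that of COL4A2 3.93% ± 0.821 and 7.86% ± 1.04. These shares sum to a whole, so a larger one makes the others smaller. The number of chains at or above 1 FPKM was 10 or 11 in the shCtrl libraries and 13 in each shHOTAIR library.

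**Figure D3:**
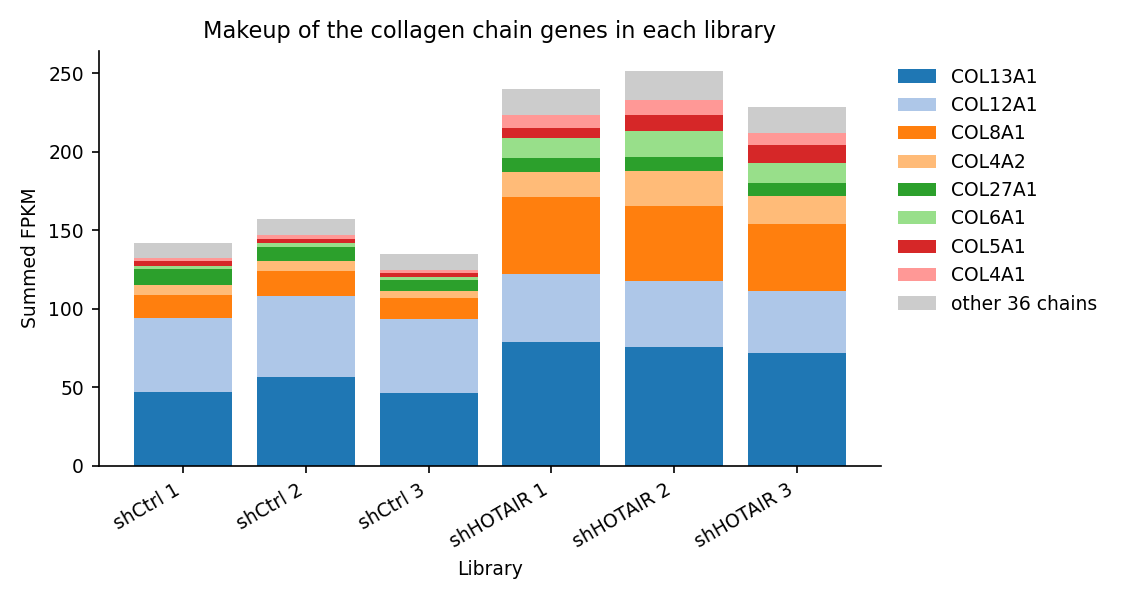
Summed FPKM of the 44 collagen chain genes in each of the 6 libraries, stacked by gene, with the chains beyond the 8 most abundant in grey. The shHOTAIR bars reach 228 to 252 FPKM against 135 to 157 FPKM in shCtrl, with wider COL8A1, COL4A2 and COL6A1 segments.

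Several of these genes lie where many neighbours were also higher. For COL4A1 and COL4A2, the 50 nearest tested protein-coding genes, outside the collagen lists, had a median log2 change of 0.72, with 41 higher and 0 lower, and 1 of them changed by more than either collagen gene. After the neighbours' median was subtracted in each library, a setting in which 14% of genes passed, the log2 change of COL4A1 was 0.73 (SE 0.14, limma adjusted p = 0.0228) and that of COL4A2 was 0.78 and no longer passed (0.0608). Around COL6A1 the median was 0.35 with 25 of 50 higher, no neighbour changed as much, and the centred change was 1.74 (limma adjusted p = 0.00277). COL8A1 lay among neighbours with a median of 0.47 and 29 higher, and its centred change was 1.21 (0.00185).

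Neighbours of COL5A1, COL1A1 and COL7A1 had medians of -0.06, -0.07 and -0.14. Of the 50 COL1A1 neighbours 3 were higher and 8 lower, and 2 rose by more than COL1A1 did. The 3 higher ones were close, at 0.084, -0.119 and 0.471 Mb, with log2 changes of 0.95, 1.11 and 1.07 against 0.96 for COL1A1. For COL5A1 and COL7A1, 0 neighbours rose by more than the collagen gene. A COL7A1 neighbour at 1.23 Mb fell by more (log2 change -1.48) and passed. The centred changes were 1.65 for COL5A1 (limma adjusted p = 0.00698), 1.05 for COL1A1 (0.0075) and 1.13 for COL7A1 (0.0513, not passing). COL13A1 sat in a stretch of chromosome 10 where 32 of 50 neighbours were lower and 0 higher, and its centred change was 1.17. COL18A1, near COL6A1, did not pass after centring (log2 change 0.46, limma adjusted p = 0.108). With centring, 5 of the 10 chain genes passed, all higher, where 7.56% of genes passed as higher. The part of the neighbourhood in these changes was not tested further, and gene copy number was not measured here.

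**Figure D4:**
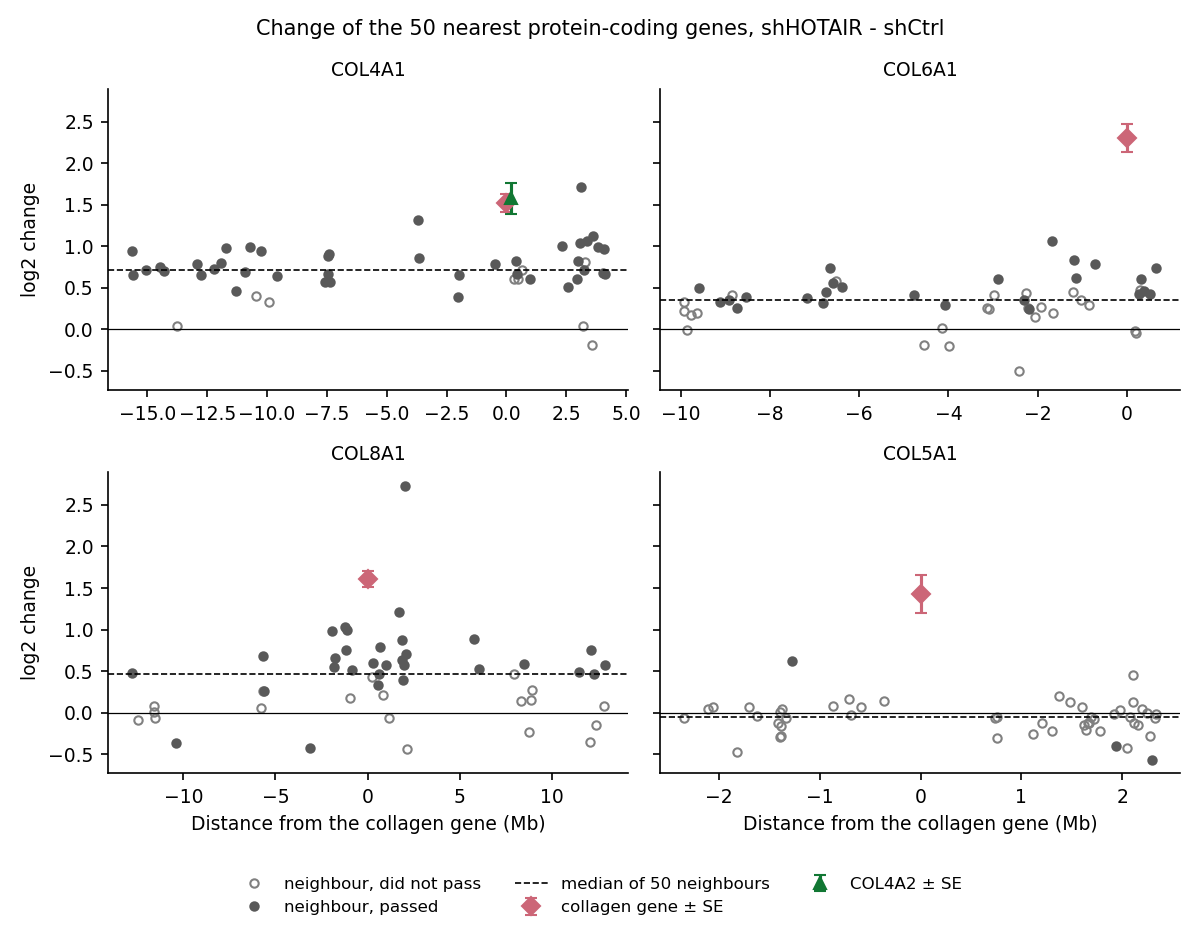
Log2 change (shHOTAIR minus shCtrl, log2(FPKM + 1) scale) of COL4A1 with COL4A2, COL6A1, COL8A1 and COL5A1, with SE bars, and of the 50 nearest tested protein-coding genes against distance in Mb. The dashed medians lie at 0.72, 0.35, 0.47 and -0.06, and COL6A1 and COL5A1 lie above every neighbour.

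Of the genes that modify and fold the chains 16 were tested, 4 were higher and 1 lower, with a median log2 change of 0.06. Over all genes tested 11.5% were higher and 12.4% lower, with a median of -0.03. P3H2, a prolyl 3-hydroxylase that acts on type IV collagen, rose, with a mean of 37.0 ± 5.92 FPKM in shCtrl and 137 ± 7.37 FPKM in shHOTAIR (SD, n = 3; log2 change 1.87, adjusted p = 0.00083 with limma). The lysyl hydroxylase PLOD1 (log2 change 0.60) and the prolyl 3-hydroxylase P3H1 (0.39) rose, and P4HA1, a catalytic subunit of prolyl 4-hydroxylase, fell (-0.50). With centring on neighbours P4HA1, on chromosome 10, and P3H1 no longer passed (adjusted p = 0.647 and 0.159), and leaving out shCtrl 2, shCtrl 3 or shHOTAIR 3 also ended the P3H1 call. The collagen chaperone SERPINH1, at 63.2 ± 0.343 and 58.6 ± 5.60 FPKM, did not pass as deposited, while its centred change of 0.37 did (adjusted p = 0.0213 with limma).

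In the list for export from the endoplasmic reticulum, 1 of 11 genes was higher, the coat protein gene SEC31A (log2 change 0.40), and 1 lower, the GTPase gene SAR1A (-0.65), in all 18.2% of the list against 23.8% of all genes tested. Neither passed with centring (adjusted p = 0.848 and 0.767). MIA3, which loads procollagen into transport carriers, did not pass (-0.21). Among 5 tested genes of procollagen processing 3 passed as higher, against 11.5% of all genes: ADAMTS3 (log2 change 0.85), the convertase FURIN (0.72) and the C-proteinase BMP1 (0.57). None of these passed with centring (adjusted p of 0.072, 0.0775 and 0.109), the FURIN call ended when any 1 library other than shHOTAIR 1 was left out, and the BMP1 call when any 1 library was.

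Of 7 cross-linking genes 4 were higher and 1 lower, where 11.5% and 12.4% of all genes tested were. The transglutaminase TGM2 rose, with a mean of 65.3 ± 1.94 FPKM in shCtrl and 183 ± 8.93 FPKM in shHOTAIR (SD, n = 3; log2 change 1.47, adjusted p = 0.000336 with limma), LOXL2 by a log2 change of 1.04 and LOXL4 by 0.97, while LOX fell (-1.40). PXDN, the peroxidase that forms the sulfilimine bonds of type IV collagen, was abundant, at 346 ± 13.3 and 351 ± 19.7 FPKM, and did not pass.

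Among 8 tested collagen receptors 4 rose and 0 fell, where 11.5% and 12.4% of all genes did. The integrin chain ITGA10 rose, with a mean of 2.46 ± 0.358 FPKM in shCtrl and 9.64 ± 1.01 FPKM in shHOTAIR (SD, n = 3; log2 change 1.62, adjusted p = 0.00112 with limma). ITGA1, whose product binds type IV collagen, rose by 0.46 (0.86 with centring), ANTXR2 by 0.40 and ANTXR1, which binds type VI collagen, by 0.37. The ANTXR1 call was lost without shCtrl 1, shCtrl 3, shHOTAIR 2 or shHOTAIR 3 and with centring (adjusted p up to 0.0761). The shared partner chain ITGB1 (log2 change -0.14), ITGA2 (-0.14) and DDR1 (0.19) did not pass. DDR2 was below the filter, with means of 0.988 and 0.373 FPKM and each shHOTAIR value under each shCtrl value. In the fit without a filter it did not pass (log2 change -0.54, limma adjusted p = 0.0805). Of all 12 receptors, 5 had shHOTAIR values all above shCtrl and 3 all below, where 43% of genes tested had groups that did not overlap.

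Of 11 tested basement membrane partners 4 rose and 1 fell, in all 45.5% against 23.8% of all genes tested. HSPG2, which encodes perlecan, rose, with a mean of 4.09 ± 0.473 FPKM in shCtrl and 11.4 ± 1.77 FPKM in shHOTAIR (SD, n = 3; log2 change 1.28, adjusted p = 0.00258 with limma) and the laminin chain gene LAMA5 by 0.70. LAMC1 rose (log2 change 0.40) and LAMB1 fell (-0.35). Neither of those passed with centring (adjusted p = 0.776 and 0.309). The LAMC1 call also ended without shCtrl 1, shCtrl 2, shCtrl 3 or shHOTAIR 2, and that of LAMB1 without shCtrl 1, shCtrl 3, shHOTAIR 2 or shHOTAIR 3. NID1, whose product links laminin to type IV collagen, did not exceed 0.0120 FPKM, and NID2 (-0.15) did not pass.

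Of the collagen-degrading proteases 4 were tested, 2 higher and 1 lower (11.5% and 12.4% over all genes). MMP13, a collagenase, rose, with a mean of 2.74 ± 0.657 FPKM in shCtrl and 12.1 ± 1.70 FPKM in shHOTAIR (SD, n = 3; log2 change 1.82, adjusted p = 0.00193 with limma) and the membrane-bound MMP14 by 0.42. MMP1, the most abundant gene of all the lists, fell, with a mean of 14085 ± 1487 FPKM in shCtrl and 7985 ± 771 FPKM in shHOTAIR (SD, n = 3; log2 change -0.82, adjusted p = 0.00735 with limma). Its call was lost without shHOTAIR 2 (0.0552) and in the fit without a filter (0.124). Over the 7 partner lists together 22 of 62 tested genes were higher and 5 lower, in all 43.5% against 23.8% of all genes tested, with a median log2 change of 0.19.

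**Figure D5:**
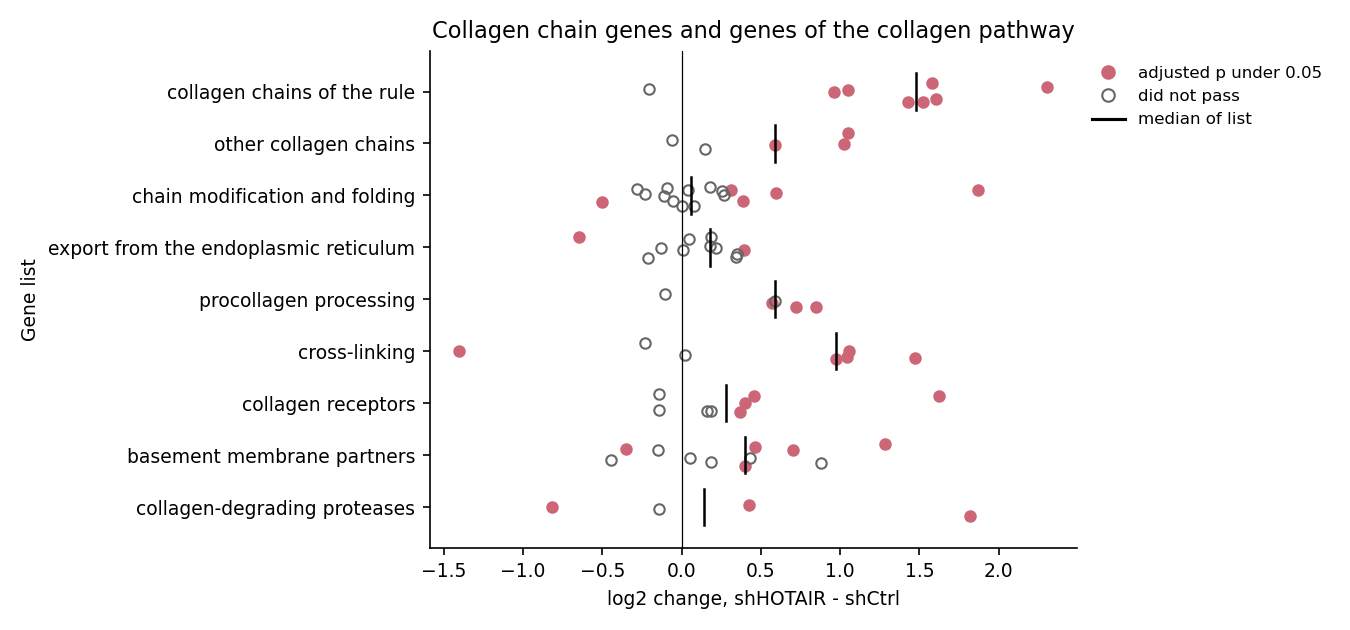
Log2 change (shHOTAIR minus shCtrl, log2(FPKM + 1) scale) of every tested gene of the collagen lists, with filled points for adjusted p under 0.05 and bars for list medians. The collagen chains of the rule and the cross-linking genes have medians of 1.48 and 0.97, and the modification and folding list has a median of 0.06.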

How the data were processed

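Poly(A)-selected RNA of 3 shCtrl and 3 shHOTAIR samples was sequenced. Per the submitters' processing notes, the tools were DESeq and TopHat2 2.0.13 and the build GRCh38, without roles. The authors deposited FPKM values per gene and library, with program, annotation and strandedness not given in the sources used. Depth is unknown, so no counting interval is given. Of 65198 rows 56807 matched GENCODE 29, which gave symbols and positions.

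The 15934 genes averaging 1 FPKM or more were compared as log2(FPKM + 1) with limma 3.58.1 in R 4.3.3 (trend, no block), Benjamini-Hochberg adjusted, threshold 0.05. The fit was tested on simulated data. Ratios of paired genes used an exact permutation test (scipy 1.17.1). Regional centring subtracted the median of the 50 nearest tested protein-coding genes outside the collagen lists. Same-numbered libraries did not deviate together (r of -0.02, 0.01 and -0.03), so no pairing was assumed. No values above 0 were shared by more than 0.00628% of tested genes in any pair of libraries. All 10 genes were named, with tested chains and up to 4 changed genes of each partner list by smallest p. Added after their values were seen were SERPINH1, MIA3, PXDN, ITGB1, ITGA2, DDR1, DDR2, NID1, NID2, COL4A6 and the other chains below the filter. The genes, lists and tests were chosen with earlier results of these data known. Promoters came from RefSeq.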

Additional observations from a re-analysis of the deposited data

How the results depend on the processing

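Of the 10 chain genes, 7 passed, and 5 to 7 did under the alternatives run: pseudocounts of 0.1 and 0.01, no filter, a minimum mean of 5 FPKM, 3 other scalings, limma without a trend or with robust eBayes, the replicate block, regional centring and each library left out (6 or 7). COL4A1, COL6A1, COL8A1 and COL1A1 passed in every setting that tested them, and none of the 8 tested chain genes changed direction. With a pseudocount of 0.01 the log2 changes of COL7A1, COL16A1 and COL18A1 were 1.82, 2.25 and 1.74. Of the other 7 collagen pathway lists and the other chains together, 30 genes passed, and 20 to 33 did under these alternatives. With the replicate block, 6 chain genes and 21 other list genes passed, with the calls of COL5A1 (adjusted p = 0.0577), COL16A1 (0.0605), ITGA1 (0.0599), ADAMTS3 (0.0626), P3H1, FURIN, BMP1, LAMB1 and LAMC1 lost (up to 0.0746), and 1740 of all genes against 3797. Over all genes, leaving out shCtrl 3 gave 2470 and shCtrl 1 gave 2508.

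The COL4A1 to COL4A2 difference of -0.06 was 0.10 and 0.13 with pseudocounts of 0.1 and 0.01 and -0.21 to 0.0853 with single libraries left out, so its sign is not determined. That of COL6A1 to COL6A2 was 2.21 to 2.48 with single libraries left out. COL27A1 (0.00163 with equal protein-coding sums, -0.19 to 0.0210 with single libraries left out) and SEC31A (-0.0242 with regional centring) changed sign, and the cause was not tested. FPKM without counts limits what can be said of chains under 1 FPKM.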
